A study of Mus musculus with 13 samples.

Results

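The enzymes and carriers of glucose use were followed in mouse skeletal muscle as a set of 35 genes. The set was chosen by name, with earlier results of these data known. It covers isoforms of glucose uptake, glycolysis, lactate handling, pyruvate dehydrogenase control and glycogen turnover. All 35 were found among 24411 genes of the bulk RNA-seq table and among 14601 genes of the first single-cell table, and 34 of them, all but Pfkfb1, among 14164 genes of the second. All samples came from wild type C57BL/6 mice aged 2 months. The bulk libraries, made with Smart-seq2 from few cells, held 4 groups. Fresh SMMC (smooth-muscle/mesenchymal-like cells) were 3 libraries of cells sorted from hindlimb muscle as ITGA7+ and Vcam1-, after removal of cells positive for Sca1, CD45 or CD31. Proliferating SMMC were 3 libraries of the same sorted cells after 3 days in culture, and differentiating SMMC were 3 libraries of such cells after culture and differentiation, for which the labels give no number of days. MuSC (quiescent muscle stem cells) were 2 freshly sorted libraries that differ in the gate by being Vcam1+. The other 2 samples were droplet single-cell libraries of mononuclear cells from uninjured hindlimb muscle. Whether libraries of a group came from separate mice is not labelled, so the p-values describe the spread between libraries alone, and this spread may be technical.

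Glucose enters a cell through carriers of the Slc2a family and is trapped by hexokinase. Phosphofructokinase commits it to glycolysis, and enolase and pyruvate kinase complete the path to pyruvate, which is either reduced to lactate by lactate dehydrogenase or oxidised in mitochondria through pyruvate dehydrogenase, the enzyme that the Pdk kinases switch off. Most steps have several isoforms: Pfkm, Eno3, Pgam2 and Pygm are the forms of mature skeletal muscle, Slc2a4 is the insulin-responsive carrier of muscle and fat, and Pfkp, Eno1 and Pgam1 are found in most tissues.

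The bulk values were FPKM, which are scaled to transcript length and to the library, so that levels of different genes can be set side by side. No read depth can be recovered from them. Ranks of genes agreed within each group (Spearman's rho from 0.938 to 0.965 across genes, which are not independent replicates). Markers of the sorted cells were checked by their summed FPKM. The 9 MuSC markers summed to between 803 and 1118 in fresh SMMC and to between 28576 and 41295 in MuSC. Fresh SMMC were also high in 9 pericyte markers (1479 to 3817, against 102 to 108 in MuSC), 8 tenocyte markers (9052 to 18479, against 10.9 to 19.9 in MuSC) and 10 FAP (fibro-adipogenic progenitor) markers (3812 to 6714, against 696 to 818 in MuSC). In the cultured SMMC these 3 sums were low (pericyte markers 10.6 to 17.0 in proliferating and 28.4 to 47.6 in differentiating libraries). The 8 smooth muscle markers summed to 1236 to 1883 in fresh, 878 to 1069 in proliferating and 2290 to 2529 in differentiating SMMC. In proliferating SMMC only 4 of these 8 averaged at least 1 FPKM. Against fresh SMMC, the limma test described below called 6 of them lower and 1 higher (35.4% and 33.1% of all genes). Their median log2 change was -3.33. Des is on both this list and the MuSC list. Markers of pericytes and tenocytes were thus near absent from the cultured cells, whose label is the same as that of the fresh ones. The 13 skeletal muscle fibre markers, such as Acta1 and Ckm, summed to 98.7 to 163 in fresh, 895 to 2298 in proliferating and 21058 to 25820 FPKM in differentiating SMMC, and to 136 to 137 in MuSC. Between fresh SMMC and MuSC these sums hide differences of single genes. The same limma test called 4 of the 13 higher in fresh SMMC and 1 lower (41.7% and 18.0% of all genes). Fresh SMMC exceeded MuSC in mean FPKM for Acta1 (57.0 over 6.97), Tnnc2 (10.3 over 2.34) and Myh2 (1.04 over 0.190). The part of fibre RNA in the higher levels of Pfkm and Eno3 in fresh SMMC, given below, was not tested. In such bulk samples, fewer cells of a type and less RNA per cell cannot be told apart.

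**Figure D1:**
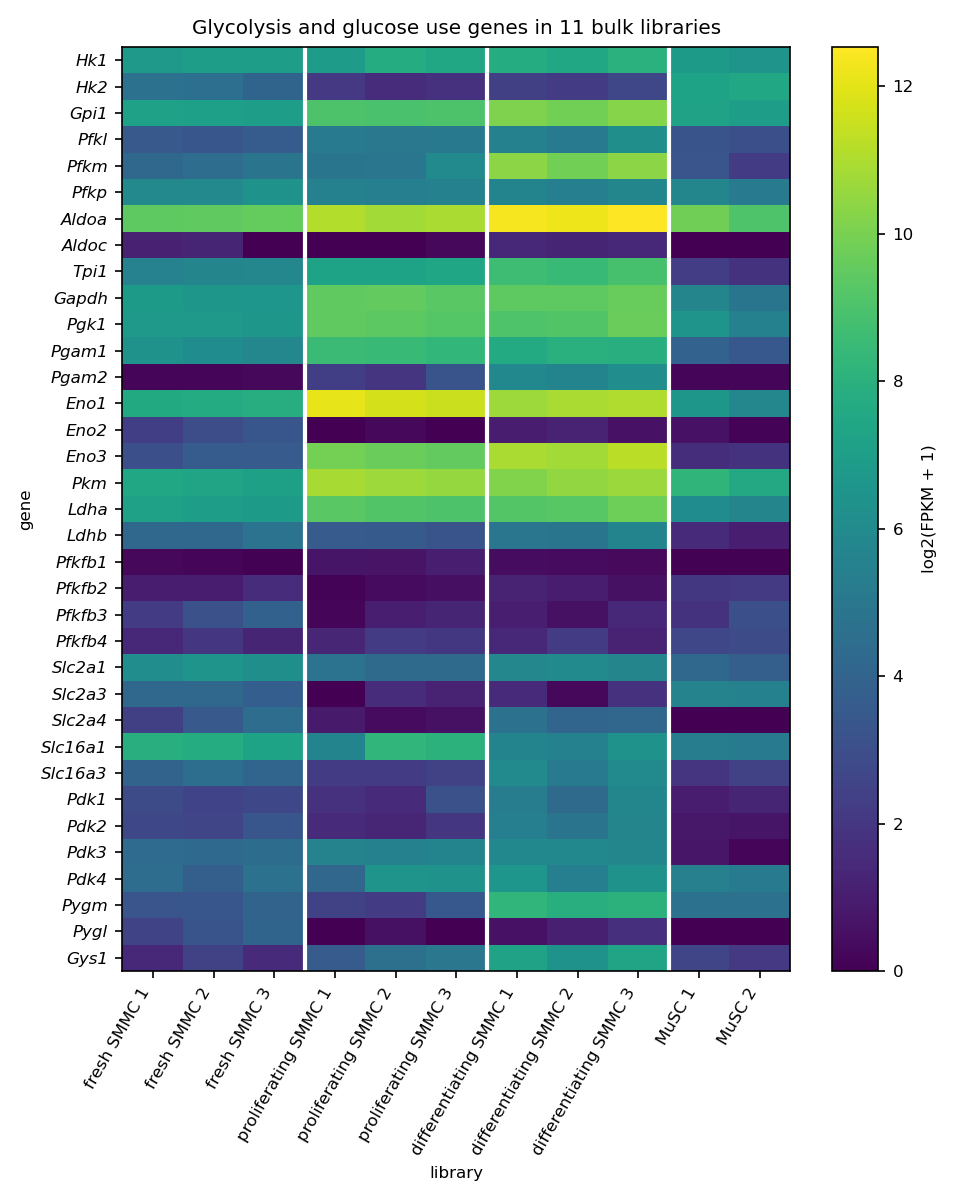
Level of each of the 35 genes (rows) in each of the 11 bulk libraries (columns) as log2(FPKM + 1), shown by colour. Libraries are grouped as fresh, proliferating and differentiating SMMC and MuSC, with white lines between groups. Eno3 lies between 7.34 and 11.3 FPKM in the fresh SMMC libraries and between 744 and 974 FPKM in the proliferating ones, while Hk2 is brightest in the 2 MuSC libraries.

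Genes of glucose use differed between all 3 pairs of groups, and the direction depended on the isoform. Tests used limma on log2(FPKM + 1) with a Benjamini-Hochberg adjusted p under 0.05, and folds are on that scale, which understates the change of low genes. Of the 35 genes, 34 passed the filter on low values. The exception was Pfkfb1, a Pfkfb enzyme typical of liver and muscle, at or below 1.10 FPKM in all 11 libraries. In fresh SMMC against MuSC, 25 of these genes were called, 20 higher and 5 lower, where 59.7% of all 13233 genes tested were called, 41.7% higher and 18.0% lower. The median log2 change over the members was 0.95, beside 0.45 over all genes. After a TMM rescaling, which brought the median of all genes to 0.04, 17 members were higher and 9 lower. In proliferating against fresh SMMC, 29 were called, of which 15 rose and 14 fell, beside 68.5% of all genes called, 33.1% higher and 35.4% lower. The medians were 0.38 for the members and -0.06 for all genes. In differentiating against proliferating SMMC, 20 were called, of which 17 rose and 3 fell, beside 40.5% of all genes called, 20.9% higher and 19.6% lower. The medians were 0.71 for the members and 0.00075 for all genes. Called changes of at least 4-fold numbered 11 up and 1 down in fresh SMMC against MuSC (13.4% and 5.03% of all genes), 9 up and 6 down in proliferating against fresh SMMC (8.82% and 12.3%), and 8 up and 0 down in differentiating against proliferating SMMC (4.62% and 2.31%). The groups did not overlap for 27, 27 and 22 of the 34 genes in these 3 comparisons in the same order, where 73.3%, 71.0% and 51.0% of all genes did not. Fresh and proliferating SMMC each enter 2 of the comparisons, so the comparisons share libraries.

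**Figure D2:**
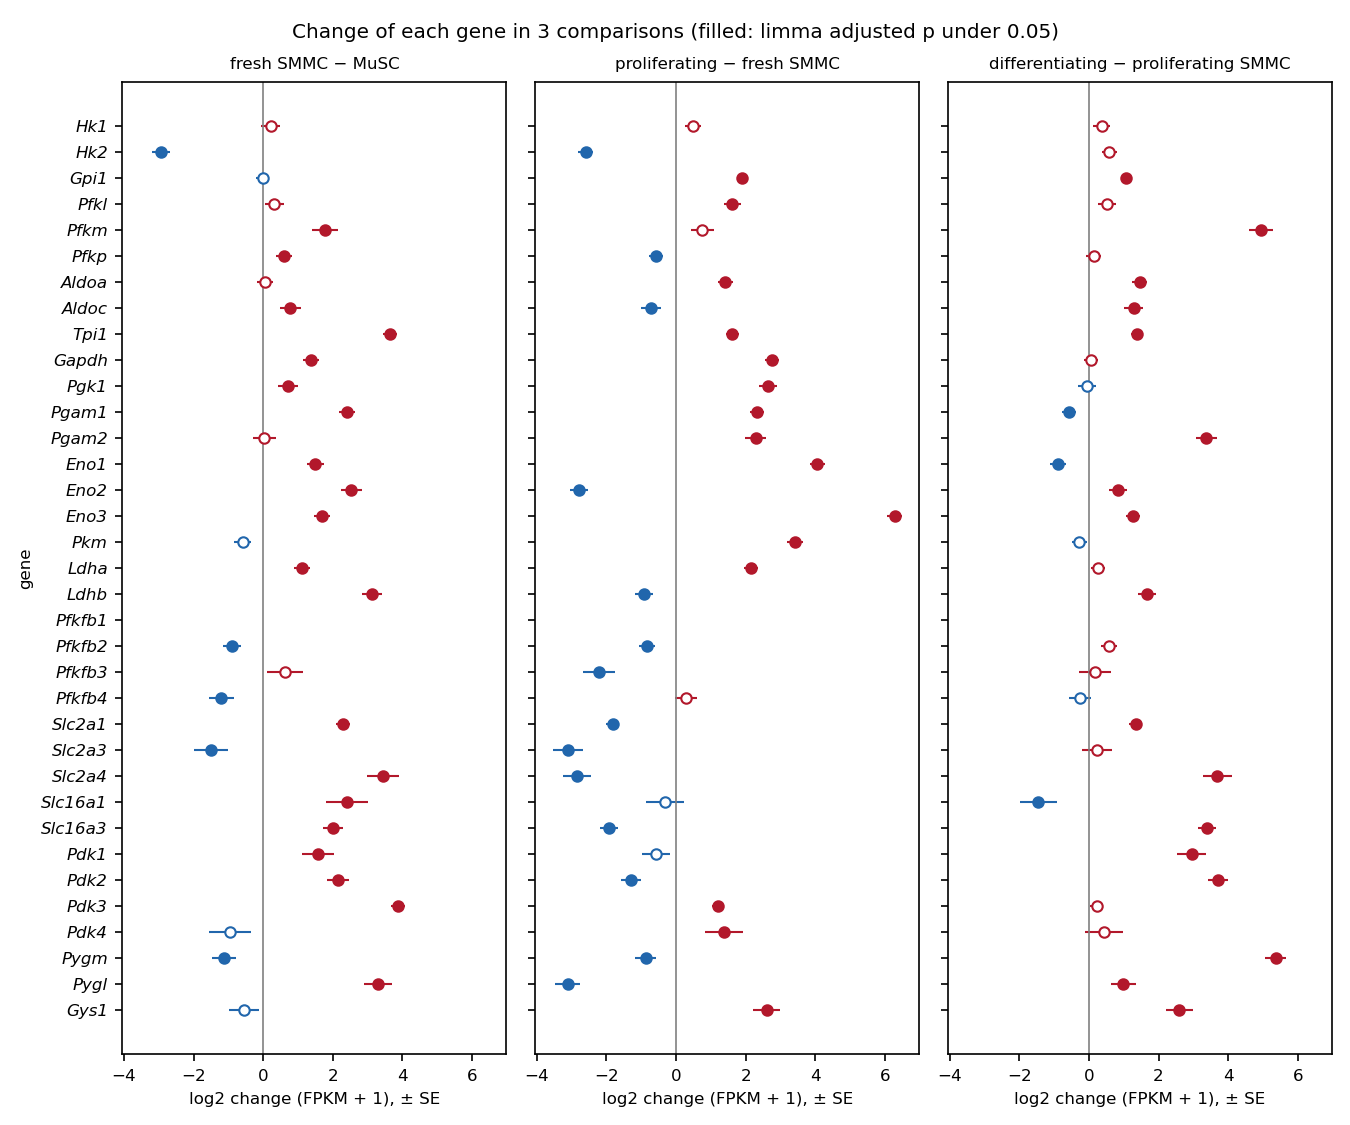
Change of each gene (rows) in the 3 bulk comparisons (panels), as log2 change of FPKM + 1 with its standard error. Red marks higher and blue lower values in the group named first in the panel title, and filled points have a limma adjusted p under 0.05. Pygm changes by 5.37 ± 0.30 (SE) in differentiating against proliferating SMMC and by -1.13 ± 0.34 in fresh SMMC against MuSC.

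The carriers that let glucose in differed in which isoform led. Slc2a1 (GLUT1), the basal carrier of most cells, stood at 70.1, 89.3 and 75.5 FPKM in fresh SMMC, 26.0, 19.4 and 19.2 in proliferating SMMC, 55.2, 61.7 and 51.6 in differentiating SMMC, and 17.3 and 13.1 in MuSC. It was high in fresh SMMC, lowest among SMMC in the proliferating libraries, and no library of one group overlapped another. Slc2a1 was 4.91-fold higher (limma adjusted p = 1.9e-06) in fresh SMMC than in MuSC, 3.53-fold lower (limma adjusted p = 3.2e-06) in proliferating than in fresh SMMC, and 2.55-fold higher (limma adjusted p = 1.3e-04) in differentiating than in proliferating SMMC. Slc2a3 (GLUT3), a carrier of high affinity best known from neurons and blood cells, stood at 18.1, 17.1 and 12.5 FPKM in fresh SMMC, 0.0155, 2.05 and 1.34 in proliferating SMMC, 1.82, 0.193 and 2.44 in differentiating SMMC, and 47.8 and 44.9 in MuSC. Both MuSC libraries lay above every SMMC library, and the cultured SMMC were all below the fresh ones. Slc2a3 was 2.83-fold lower (limma adjusted p = 0.0172) in fresh SMMC than in MuSC. This limma call was lost without fresh SMMC replicate 3 (adjusted p = 0.0572), MuSC replicate 1 (adjusted p = 0.0909) or MuSC replicate 2 (adjusted p = 0.0787), and also with a pseudocount of 0.1 (adjusted p = 0.253) or without a filter on low values (adjusted p = 0.0539). Leaving out 1 of the 2 MuSC libraries leaves a lone library, which the limma fit assumes to vary like the other groups. In proliferating against fresh SMMC it was 8.65-fold lower (limma adjusted p = 3.8e-05). Slc2a4 (GLUT4) was near 0 in MuSC and proliferating SMMC, with 4.26, 10.3 and 21.3 FPKM in fresh SMMC, 0.864, 0.270 and 0.493 in proliferating SMMC, 24.3, 15.9 and 16.8 in differentiating SMMC, and 0.0333 and 0.00991 in MuSC. The 3 fresh libraries spread widely, and the differentiating libraries all lay above the proliferating ones. Slc2a4 was 10.8-fold higher (limma adjusted p = 4.2e-05) in fresh SMMC than in MuSC, 7.22-fold lower (limma adjusted p = 5.3e-05) in proliferating SMMC and 12.9-fold higher (limma adjusted p = 2.4e-05) in differentiating SMMC.

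As a share of the FPKM of the 3 carriers, Slc2a3 made up 15.2% ± 4.12 in fresh SMMC (SD, n = 3) and 75.4% ± 2.88 in MuSC (SD, n = 2). Slc2a4 made up 24.7% ± 4.80 in differentiating and 2.27% ± 0.991 in proliferating SMMC (SD, n = 3 each). Shares within a library do not depend on its scaling. With 3 libraries against 2, the smallest p that a two-sided exact permutation test of such a share can give is 0.2, and with 3 against 3 it is 0.1, so no share can pass 0.05. All share differences named here had that smallest p unless stated.

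Hexokinase changed its leading isoform between the 2 freshly sorted populations. Hk1, the form found in most tissues and bound to mitochondria, stood at 104, 128 and 123 FPKM in fresh SMMC, 116, 213 and 183 in proliferating SMMC, 219, 174 and 256 in differentiating SMMC, and 115 and 90.3 in MuSC. Its groups overlapped in each comparison, and limma called none of its changes (adjusted p = 0.516, 0.0891 and 0.247 in the order of the comparisons above). Hk2, the inducible and insulin-responsive form, stood at 24.7, 22.6 and 15.5 FPKM in fresh SMMC, 3.27, 2.05 and 2.46 in proliferating SMMC, 4.16, 3.63 and 5.39 in differentiating SMMC, and 155 and 174 in MuSC. The fresh SMMC lay well below both MuSC libraries and well above all 6 cultured libraries. Hk2 was 7.66-fold lower (limma adjusted p = 1.1e-06) in fresh SMMC than in MuSC and 6.06-fold lower (limma adjusted p = 7.5e-07) in proliferating than in fresh SMMC, while differentiating and proliferating SMMC differed 1.503-fold, short of the threshold (limma adjusted p = 0.0548). Hk2 made up 19.2%, 14.99% and 11.2% of the hexokinase FPKM in the 3 fresh SMMC libraries and 57.4% and 65.9% in the 2 MuSC libraries. In the cultured SMMC its share was at most 2.75%. Gpi1, which turns glucose phosphate into fructose phosphate, ranged from 131 to 145 FPKM in fresh SMMC, from 489.8 to 524 in proliferating, from 941 to 1215 in differentiating SMMC, and from 127 to 149.9 in MuSC. It rose 3.73-fold in proliferating SMMC and 2.099-fold in differentiating SMMC (limma adjusted p = 6.3e-07 and 2.3e-04), and fresh SMMC and MuSC overlapped.

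Among the phosphofructokinases the muscle form took over in the differentiating cells. Pfkm stood at 17.9, 21.3 and 26.9 FPKM in fresh SMMC, 28.5, 29.6 and 61.3 in proliferating SMMC, 1326, 939 and 1302 in differentiating SMMC, and 8.86 and 3.48 in MuSC. All 3 differentiating libraries were far above every other library. Pfkm was 30.7-fold higher (limma adjusted p = 7.8e-07) in differentiating than in proliferating SMMC and 3.42-fold higher (limma adjusted p = 0.00137) in fresh SMMC than in MuSC. In proliferating against fresh SMMC its 1.69-fold difference did not pass (limma adjusted p = 0.0632), and proliferating replicate 3 stood above its 2 fellow libraries. Pfkp, the platelet form, led in the other 3 groups by mean FPKM, with 59.0, 59.1 and 81.8 FPKM in fresh SMMC, 44.4, 41.9 and 44.6 in proliferating SMMC, 50.1, 41.7 and 52.5 in differentiating SMMC, and 53.7 and 34.5 in MuSC. In proliferating replicate 3 Pfkm exceeded it. The proliferating libraries lay below the fresh ones and within the range of MuSC. Pfkp was 1.52-fold higher (limma adjusted p = 0.0376) in fresh SMMC than in MuSC, which was lost without fresh SMMC replicate 3 (adjusted p = 0.124) or MuSC replicate 2 (adjusted p = 0.34) and turned to a log2 change of -0.0020 after TMM rescaling. It was 1.499-fold lower (limma adjusted p = 0.0224) in proliferating than in fresh SMMC, which was lost without proliferating SMMC replicate 2 (adjusted p = 0.0635) or fresh SMMC replicate 3 (adjusted p = 0.0944). Pfkl, the liver form, stood at 10.1, 9.26 and 11.4 FPKM in fresh SMMC, 36.3, 31.6 and 32.9 in proliferating SMMC, 44.1, 34.4 and 75.3 in differentiating SMMC, and 8.68 and 7.35 in MuSC. All cultured libraries exceeded all fresh ones, and Pfkl was 3.08-fold higher (limma adjusted p = 8.7e-05) in proliferating SMMC. Pfkm made up 92.3% ± 1.16 of the phosphofructokinase FPKM in differentiating, 33.0% ± 9.76 in proliferating and 22.2% ± 1.57 in fresh SMMC (SD, n = 3 each).

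**Figure D3:**
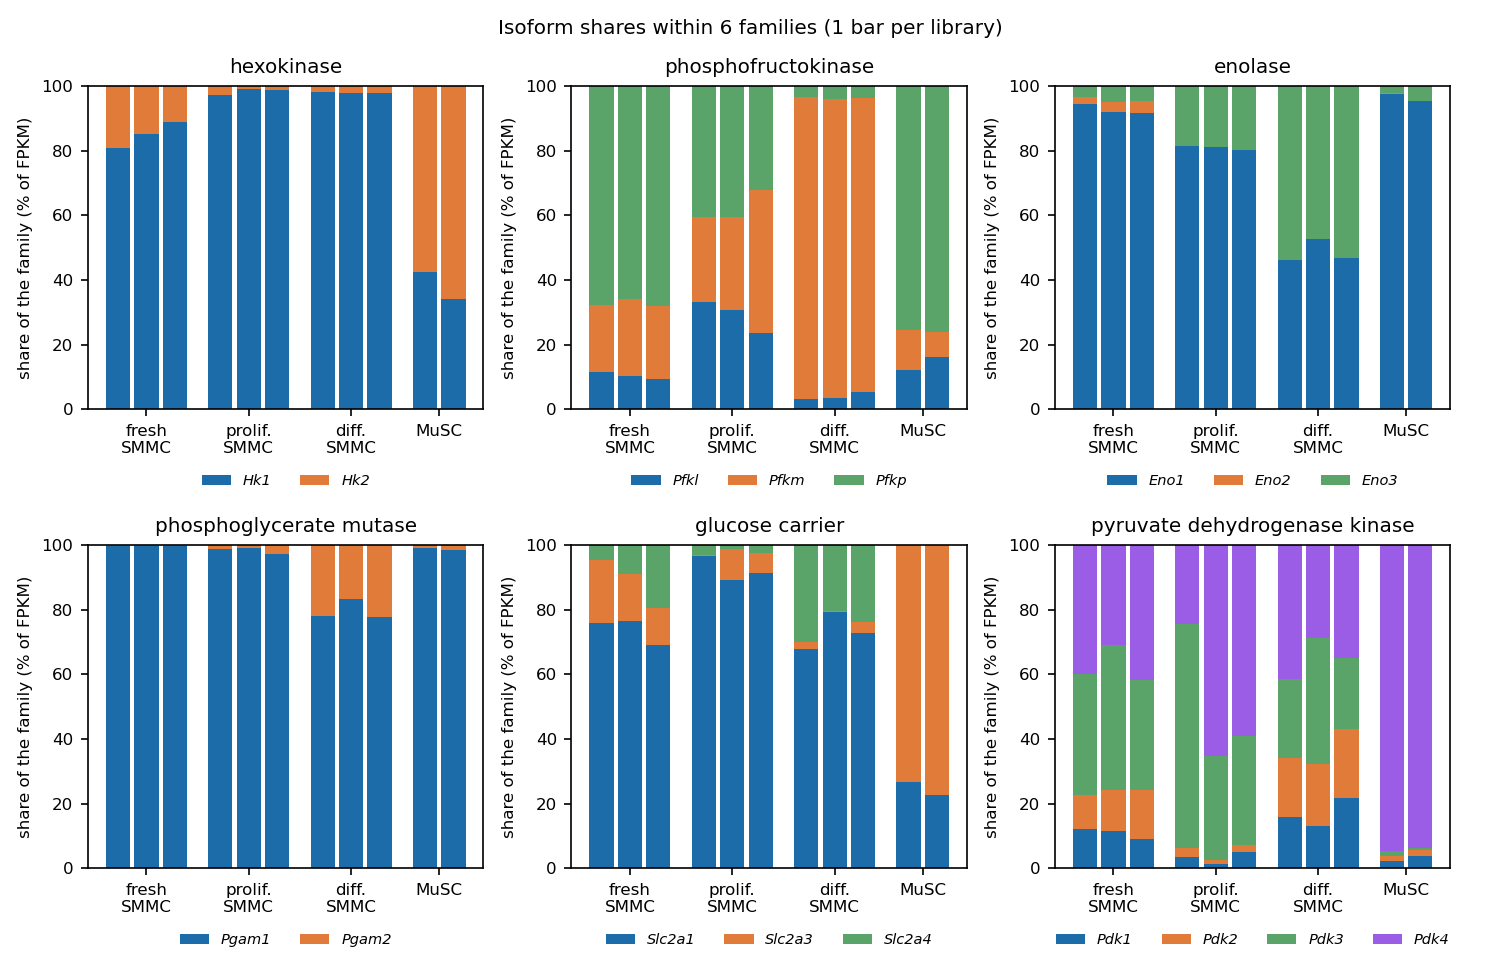
Share of each isoform in the summed FPKM of its family, in percent, for 6 families and 1 bar per library (3 fresh, 3 proliferating and 3 differentiating SMMC, 2 MuSC). Hk2 fills 57.4% and 65.9% of the hexokinase bars in MuSC, Pfkm 91.1% to 93.4% of the phosphofructokinase bars in differentiating SMMC, and Slc2a3 most of the carrier bars in MuSC.

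The Pfkfb enzymes make and break a fructose bisphosphate that activates phosphofructokinase, and all 4 stood at 13.9 FPKM or less in every library. Pfkfb3, the form induced by hypoxia and growth signals, stood at 3.57, 7.49 and 13.9 FPKM in fresh SMMC, 0.133, 1.07 and 1.46 in proliferating SMMC, 1.07, 0.488 and 1.76 in differentiating SMMC, and 2.56 and 7.27 in MuSC. It led the family in fresh SMMC, where its 3 libraries spread widely and overlapped MuSC, and each cultured library was below each fresh one. Pfkfb3 was 4.64-fold lower (limma adjusted p = 9.0e-04) in proliferating than in fresh SMMC. Pfkfb4 led in the other groups by mean FPKM, at 1.26 to 6.33 FPKM in all libraries, with Pfkfb3 above it in MuSC replicate 2 and differentiating replicate 3. Pfkfb2, the heart form, ranged from 0.105 to 3.34 FPKM. Both were lower in fresh SMMC than in MuSC (Pfkfb4 2.3003-fold and Pfkfb2 1.87-fold, limma adjusted p = 0.0102 and 0.00851). Both calls were lost without MuSC replicate 2 (limma adjusted p = 0.077 for Pfkfb4 and 0.0518 for Pfkfb2). Pfkfb2 also fell in proliferating SMMC (1.79-fold, limma adjusted p = 0.00564), which was lost after quantile normalization (log2 change -0.21, limma adjusted p = 0.379).

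Aldoa, Tpi1, Gapdh, Pgk1 and Pgam1, the general enzymes of the middle steps, all rose in proliferating against fresh SMMC. Aldoa, the muscle and general aldolase and the most abundant member in 3 of the 4 groups, averaged 726 ± 36.4 FPKM in fresh SMMC (SD, n = 3) and 723 ± 262 in MuSC (SD, n = 2). It averaged 1949 ± 195 FPKM in proliferating and 5346 ± 555 in differentiating SMMC (SD, n = 3 each). Aldoa rose in both culture comparisons (2.68-fold in proliferating and 2.74-fold in differentiating SMMC, limma adjusted p = 7.5e-05 and 1.9e-04). The difference between fresh SMMC and MuSC, whose libraries overlapped, did not pass (limma adjusted p = 0.864), but after TMM rescaling Aldoa was lower in fresh SMMC by a log2 change of -0.56 (adjusted p = 0.0359). Aldoc, the brain form, was at or below 1.72 FPKM in every library, and fresh SMMC replicate 3 was listed at 0. It was 2.44-fold higher (limma adjusted p = 0.00275) in differentiating SMMC. It was also 1.72-fold higher (limma adjusted p = 0.045) in fresh SMMC than in MuSC, where the libraries overlapped, and the call was lost under 9 of 13 alternatives, among them the limma fits without fresh SMMC replicate 1 (adjusted p = 0.13), fresh SMMC replicate 2 (adjusted p = 0.155), MuSC replicate 1 (adjusted p = 0.145) or MuSC replicate 2 (adjusted p = 0.149). In proliferating SMMC it was 1.65-fold lower (limma adjusted p = 0.0347), again with overlap, which was lost under 8 of 14 alternatives, among them the limma fits without proliferating SMMC replicate 1 (adjusted p = 0.0856), proliferating SMMC replicate 2 (adjusted p = 0.0887), fresh SMMC replicate 1 (adjusted p = 0.123) or fresh SMMC replicate 2 (adjusted p = 0.151).

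Tpi1, which interconverts the triose phosphates, separated all 4 groups, with 46.1, 50.4 and 54.7 FPKM in fresh SMMC, 155, 154 and 162 in proliferating SMMC, 404, 356 and 474 in differentiating SMMC, and 3.81 and 2.54 in MuSC. Its groups lay in steps with no overlap, from MuSC at the bottom to differentiating SMMC at the top. Tpi1 was 12.4-fold higher (limma adjusted p = 2.8e-08) in fresh SMMC than in MuSC, 3.08-fold higher (limma adjusted p = 4.7e-06) in proliferating SMMC and 2.59-fold higher (limma adjusted p = 6.5e-05) in differentiating SMMC. Gapdh, which makes the first NADH of the path, stood at 111, 97.1 and 95.02 FPKM in fresh SMMC, 707, 725 and 640.3 in proliferating SMMC, 689.9, 676 and 797 in differentiating SMMC, and 51.6 and 28.5 in MuSC. The cultured groups overlapped each other, and both lay above fresh SMMC, which lay above MuSC. Gapdh was 2.58-fold higher (limma adjusted p = 2.6e-04) in fresh SMMC than in MuSC and 6.78-fold higher (limma adjusted p = 2.4e-07) in proliferating than in fresh SMMC. Pgk1, which makes the first ATP of the path, stood at 110.2, 106 and 96.8 FPKM in fresh SMMC, 714, 655 and 603 in proliferating SMMC, 545, 560.3 and 824 in differentiating SMMC, and 90.0 and 44.0 in MuSC. It followed Gapdh, with cultured libraries far above the others. Pgk1 was 6.25-fold higher (limma adjusted p = 1.6e-06) in proliferating than in fresh SMMC. In fresh SMMC against MuSC it was 1.64-fold higher (limma adjusted p = 0.0424), a call lost under 8 of 14 alternatives, among them the limma fits without fresh SMMC replicate 1 (adjusted p = 0.0964), fresh SMMC replicate 2 (adjusted p = 0.0905), fresh SMMC replicate 3 (adjusted p = 0.0626) or MuSC replicate 2 (adjusted p = 0.515). Gapdh, Aldoa, Tpi1, Pgk1, Pgam1, Eno1, Ldha and Pkm have near-identical copies in the mouse genome, and the treatment of reads that match more than 1 copy is not stated, so their levels are uncertain.

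The muscle form of phosphoglycerate mutase gained share in the differentiating cells. Pgam2, the muscle form, stood at 0.170, 0.119 and 0.215 FPKM in fresh SMMC, 4.09, 2.81 and 8.46 in proliferating SMMC, 56.5, 49.6 and 69.4 in differentiating SMMC, and 0.139 and 0.151 in MuSC. It was at 0.215 FPKM or less in the freshly sorted cells, low in proliferating SMMC, and highest in all 3 differentiating libraries. Pgam2 was 4.87-fold higher (limma adjusted p = 2.0e-05) in proliferating and 10.4-fold higher (limma adjusted p = 4.1e-06) in differentiating SMMC. Pgam1, the general form, stood at 84.7, 68.3 and 54.1 FPKM in fresh SMMC, 372, 346 and 310.3 in proliferating SMMC, 200.3, 247 and 240.3 in differentiating SMMC, and 14.2 and 10.0 in MuSC. The proliferating libraries were the highest and the MuSC libraries the lowest, with no overlap between groups. Pgam1 was 5.32-fold higher (limma adjusted p = 2.2e-06) in fresh SMMC than in MuSC and 4.97-fold higher (limma adjusted p = 7.9e-07) in proliferating SMMC. In differentiating against proliferating SMMC it was 1.495-fold lower (limma adjusted p = 0.0368), which was lost under 8 of 15 alternatives, among them the limma fits that left out any 1 of the 6 libraries compared: differentiating SMMC replicate 1 (adjusted p = 0.133), differentiating SMMC replicate 2 (adjusted p = 0.0517), differentiating SMMC replicate 3 (adjusted p = 0.0594), proliferating SMMC replicate 1 (adjusted p = 0.0917), proliferating SMMC replicate 2 (adjusted p = 0.0931) or proliferating SMMC replicate 3 (adjusted p = 0.0512). Pgam2 made up 20.4% ± 3.18 of the pair's FPKM in differentiating and 1.52% ± 0.995 in proliferating SMMC (SD, n = 3 each).

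Since Pgam2, Eno3 and Pygm rose together in differentiating SMMC, the 250 bases before the RefSeq start of 4 genes (build GRCm38.p6) are shown, for the muscle forms Pgam2, Eno3 and Pygm and for Pgam1 as the general counterpart of Pgam2. Capitals mark the E-box letters CANNTG, which read the same pattern on both strands and which, as background, basic helix-loop-helix factors such as the myogenic regulators can bind. The choice is partial: Pfkm, which also rose in differentiating SMMC, and general counterparts of Eno3 and Pygm are not shown. A match is a description of letters and not a bound site.
Pgam2 (chr11:5803797-5804046, minus strand): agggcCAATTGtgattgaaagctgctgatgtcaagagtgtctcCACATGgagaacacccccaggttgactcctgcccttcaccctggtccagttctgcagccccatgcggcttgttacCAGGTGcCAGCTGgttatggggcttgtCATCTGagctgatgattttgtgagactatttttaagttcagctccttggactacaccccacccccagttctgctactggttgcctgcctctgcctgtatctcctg
Pgam1 (chr19:41911621-41911870, plus strand): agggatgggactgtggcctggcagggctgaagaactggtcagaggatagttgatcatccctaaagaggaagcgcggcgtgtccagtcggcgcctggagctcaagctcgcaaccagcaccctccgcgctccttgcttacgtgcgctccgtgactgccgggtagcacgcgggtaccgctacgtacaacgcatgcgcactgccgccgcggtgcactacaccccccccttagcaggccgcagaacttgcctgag
Eno3 (chr11:70656926-70657175, plus strand): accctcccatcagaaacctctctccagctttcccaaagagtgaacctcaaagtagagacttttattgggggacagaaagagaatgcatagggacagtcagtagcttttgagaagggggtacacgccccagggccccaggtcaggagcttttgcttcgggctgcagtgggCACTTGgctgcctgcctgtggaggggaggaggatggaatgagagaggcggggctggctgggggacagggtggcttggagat
Pygm (chr19:6384158-6384407, plus strand): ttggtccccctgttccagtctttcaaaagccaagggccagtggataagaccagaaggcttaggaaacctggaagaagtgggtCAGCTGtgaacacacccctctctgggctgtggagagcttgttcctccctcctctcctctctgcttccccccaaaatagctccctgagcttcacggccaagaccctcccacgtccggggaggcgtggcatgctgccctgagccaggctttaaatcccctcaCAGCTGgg

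Pgam2 held 5 such matches, at -245, -207, -132, -125 and -105 from its start, 1 of them of the form CAGCTG, and Pgam1 held 0. Eno3 held 1 at -81, and Pygm held 2, at -168 and -8, both CAGCTG. Of all 32851 promoters of this length in the RefSeq table, 66.2% held at least 1 CANNTG, 31.8% at least 2 and 1.15% at least 5, while 13.001% held CAGCTG and 1.26% held it at least 2 times. Of the members, 33 of 35 were in the table, with 52 promoters, of which 65.4% held at least 1 CANNTG and 15.4% CAGCTG. The share among all members was thus close to that among all promoters.

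The 2 largest rises among the members in proliferating SMMC were of enolases. Eno3, the muscle form, stood at 7.34, 11.3 and 11.1 FPKM in fresh SMMC, 974, 804 and 744 in proliferating SMMC, 1939, 1750.3 and 2405 in differentiating SMMC, and 2.11 and 2.63 in MuSC. The 3 groups of SMMC formed separate steps, with MuSC below them. Eno3 was 77.7-fold higher (limma adjusted p = 5.5e-10) in proliferating than in fresh SMMC, and 2.41-fold higher (limma adjusted p = 3.8e-04) in differentiating than in proliferating SMMC. In fresh SMMC it was 3.21-fold higher (limma adjusted p = 4.7e-05) than in MuSC. Eno1, the general form, stood at 198, 212 and 224 FPKM in fresh SMMC, 4303, 3432 and 2995 in proliferating SMMC, 1672, 1948 and 2119 in differentiating SMMC, and 98.1 and 55.8 in MuSC. The proliferating libraries were the highest, the differentiating ones came next, and both freshly sorted groups were far below. Eno1 was 2.82-fold higher (limma adjusted p = 2.6e-04) in fresh SMMC than in MuSC, 16.7-fold higher (limma adjusted p = 2.3e-08) in proliferating and 1.86-fold lower (limma adjusted p = 0.00734) in differentiating SMMC. Eno2, the neuronal form, stood at 4.09, 6.89 and 9.23 FPKM in fresh SMMC, 0.0337, 0.223 and 0 in proliferating SMMC, 1.04, 1.27 and 0.531 in differentiating SMMC, and 0.511 and 0.0981 in MuSC. Fresh SMMC lay above every other library. Eno2 was 5.77-fold higher (limma adjusted p = 1.4e-05) in fresh SMMC than in MuSC and 6.88-fold lower (limma adjusted p = 1.6e-06) in proliferating SMMC. In differentiating SMMC it was 1.78-fold higher (limma adjusted p = 0.025), which was lost without differentiating SMMC replicate 1 (adjusted p = 0.0735), differentiating SMMC replicate 2 (adjusted p = 0.0839), proliferating SMMC replicate 1 (adjusted p = 0.062) or proliferating SMMC replicate 3 (adjusted p = 0.0739). Eno3 made up 51.4% ± 3.53 of the enolase FPKM in differentiating, 19.1% ± 0.725 in proliferating and 4.33% ± 0.734 in fresh SMMC (SD, n = 3 each).

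**Figure D4:**
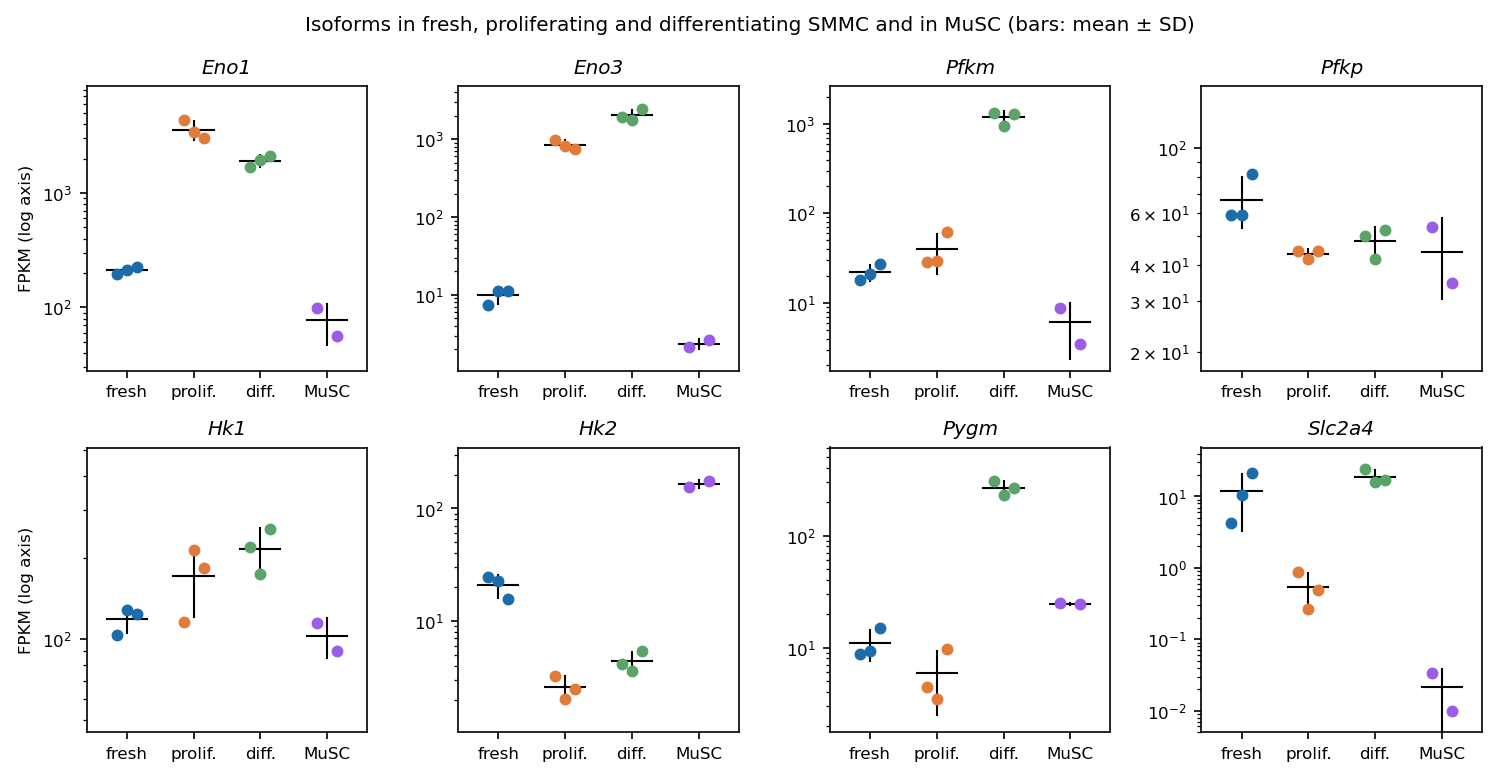
FPKM on a log axis of 8 isoforms in each library (points), with the group mean (horizontal bar) and SD (vertical bar), for fresh (n = 3), proliferating (n = 3) and differentiating SMMC (n = 3) and MuSC (n = 2). Eno1 peaks in proliferating SMMC at 3576 ± 666, Pfkm and Pygm in differentiating SMMC at 1189 ± 217 and 266 ± 38.6, and Hk2 in MuSC at 164 ± 13.8.

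Pkm and Ldha, at the end of the path, rose in proliferating SMMC, and neither was called in differentiating against proliferating SMMC (limma adjusted p = 0.349 and 0.366). Pkm, pyruvate kinase of muscle and most other tissues, stood at 174, 157 and 137 FPKM in fresh SMMC, 1897, 1645 and 1487 in proliferating SMMC, 1139, 1439.7 and 1594 in differentiating SMMC, and 298 and 185 in MuSC. All cultured libraries were well above all others, and the fresh SMMC were below both MuSC libraries. Pkm was 10.7-fold higher (limma adjusted p = 6.5e-08) in proliferating than in fresh SMMC, and its difference between fresh SMMC and MuSC (1.51-fold) did not pass (limma adjusted p = 0.0511), but passed after TMM rescaling (adjusted p = 7.9e-04) and without MuSC replicate 2 (adjusted p = 0.00836). The table sums the splice forms of Pkm, so the M1 and M2 enzymes are not resolved. Ldha, which reduces pyruvate to lactate, stood at 144, 130.0 and 112 FPKM in fresh SMMC, 632, 568 and 528 in proliferating SMMC, 587, 610.2 and 885 in differentiating SMMC, and 67.2 and 51.4 in MuSC. It had the same order of groups as Gapdh. Ldha was 2.16-fold higher (limma adjusted p = 0.00103) in fresh SMMC than in MuSC and 4.46-fold higher (limma adjusted p = 1.4e-06) in proliferating SMMC. The limma call against MuSC was lost after TMM rescaling (log2 change 0.50, adjusted p = 0.0785). Ldhb, the heart form, stood at 17.8, 17.2 and 26.5 FPKM in fresh SMMC, 11.3, 10.6 and 8.68 in proliferating SMMC, 29.5, 28.1 and 49.8 in differentiating SMMC, and 1.84 and 1.09 in MuSC. MuSC were the lowest, and the proliferating libraries lay below the fresh and the differentiating ones. Ldhb was 8.66-fold higher (limma adjusted p = 2.1e-06) in fresh SMMC than in MuSC, 1.90-fold lower (limma adjusted p = 0.00681) in proliferating and 3.20-fold higher (limma adjusted p = 2.8e-04) in differentiating SMMC. Its share of lactate dehydrogenase FPKM was 14.0% ± 4.52 in fresh SMMC (SD, n = 3) and 2.38% ± 0.413 in MuSC (SD, n = 2).

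Of the lactate carriers, Slc16a3 followed differentiation. Slc16a3 (MCT4), the exporter of glycolytic muscle, stood at 15.03, 22.2 and 15.8 FPKM in fresh SMMC, 3.72, 3.54 and 4.40 in proliferating SMMC, 61.0, 34.4 and 60.4 in differentiating SMMC, and 2.78 and 4.59 in MuSC. Differentiating libraries were the highest, fresh SMMC came next, and proliferating SMMC overlapped MuSC in range. Slc16a3 was 4.003-fold higher (limma adjusted p = 8.2e-05) in fresh SMMC than in MuSC, 3.77-fold lower (limma adjusted p = 3.3e-05) in proliferating and 10.5-fold higher (limma adjusted p = 1.7e-06) in differentiating SMMC. Slc16a1 (MCT1), a carrier that moves lactate either way, stood at 234, 218 and 153 FPKM in fresh SMMC, 49.3, 299 and 267 in proliferating SMMC, 48.6, 44.3 and 85.8 in differentiating SMMC, and 38.5 and 34.8 in MuSC. Proliferating replicate 1 stood apart from its 2 fellow libraries, within the range of the differentiating ones. Slc16a1 was 5.30-fold higher (limma adjusted p = 0.00409) in fresh SMMC than in MuSC. In differentiating against proliferating SMMC it was 2.75-fold lower (limma adjusted p = 0.0469), which was lost under 11 of 15 alternatives, among them the limma fits without differentiating SMMC replicate 1 (adjusted p = 0.127), differentiating SMMC replicate 2 (adjusted p = 0.126), proliferating SMMC replicate 2 (adjusted p = 0.187) or proliferating SMMC replicate 3 (adjusted p = 0.166). Slc16a3 made up 46.9% ± 7.66 of the pair's FPKM in differentiating and 3.27% ± 3.25 in proliferating SMMC (SD, n = 3 each).

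The 4 pyruvate dehydrogenase kinases each had a pattern of their own. Pdk3 stood at 20.1, 18.4 and 20.7 FPKM in fresh SMMC, 47.3, 44.4 and 49.4 in proliferating SMMC, 55.9, 55.8 and 53.1 in differentiating SMMC, and 0.688 and 0.177 in MuSC. Groups followed in order from MuSC, near 0, to differentiating SMMC, without overlap. Pdk3 was 14.7-fold higher (limma adjusted p = 1.8e-08) in fresh SMMC than in MuSC and 2.32-fold higher (limma adjusted p = 5.5e-05) in proliferating SMMC. Pdk2 stood at 5.58, 5.16 and 9.12 FPKM in fresh SMMC, 1.81, 1.52 and 2.95 in proliferating SMMC, 42.0, 27.0 and 51.4 in differentiating SMMC, and 0.730 and 0.630 in MuSC. Differentiating libraries were the highest, and fresh SMMC lay above both other groups. Pdk2 was 4.43-fold higher (limma adjusted p = 9.8e-05) in fresh SMMC than in MuSC, 2.45-fold lower (limma adjusted p = 0.00147) in proliferating and 13.1-fold higher (limma adjusted p = 1.7e-06) in differentiating SMMC. Pdk1, a kinase induced by hypoxia, stood at 6.59, 4.80 and 5.54 FPKM in fresh SMMC, 2.49, 1.90 and 7.61 in proliferating SMMC, 36.9, 19.0 and 52.5 in differentiating SMMC, and 1.01 and 1.42 in MuSC. The differentiating libraries exceeded all others, and proliferating SMMC overlapped the fresh ones. Pdk1 was 7.74-fold higher (limma adjusted p = 1.3e-04) in differentiating SMMC and 2.999-fold higher (limma adjusted p = 0.0101) in fresh SMMC than in MuSC, which was lost without MuSC replicate 1 (adjusted p = 0.0761). Pdk4, the form induced by fasting and fatty acids, led the family by mean FPKM in every group and stood at 21.4, 12.8 and 25.4 FPKM in fresh SMMC, 16.8, 89.4 and 86.7 in proliferating SMMC, 95.8, 41.3 and 84.4 in differentiating SMMC, and 42.6 and 33.7 in MuSC. In fresh SMMC it overlapped Pdk3 in level, and proliferating replicate 1 lay within the fresh range while its 2 fellow libraries lay above it. The call of Pdk4 as 2.58-fold higher (limma adjusted p = 0.0394) in proliferating SMMC was lost under 9 of 15 alternatives, among them the limma fits without proliferating SMMC replicate 2 (adjusted p = 0.157), proliferating SMMC replicate 3 (adjusted p = 0.148), fresh SMMC replicate 1 (adjusted p = 0.0714) or fresh SMMC replicate 2 (adjusted p = 0.143). Pdk4 made up 37.6% ± 5.75 of the kinase FPKM in fresh SMMC (SD, n = 3) and 94.2% ± 0.586 in MuSC (SD, n = 2).

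Muscle glycogen phosphorylase and glycogen synthase both rose at differentiation. Pygm, muscle glycogen phosphorylase, stood at 8.85, 9.29 and 14.97 FPKM in fresh SMMC, 4.42, 3.498 and 9.76 in proliferating SMMC, 306, 228 and 265 in differentiating SMMC, and 25.0 and 24.4 in MuSC. The differentiating libraries were far above all others, MuSC came next, and proliferating replicate 3 overlapped the fresh SMMC. Pygm was 41.5-fold higher (limma adjusted p = 2.4e-07) in differentiating than in proliferating SMMC, the largest fold of any member in this comparison. In fresh SMMC it was 2.19-fold lower (limma adjusted p = 0.0117) than in MuSC, which was lost without MuSC replicate 1 (adjusted p = 0.0617) or MuSC replicate 2 (adjusted p = 0.0578). In proliferating SMMC it was 1.83-fold lower (limma adjusted p = 0.021), which was lost without proliferating SMMC replicate 1 (adjusted p = 0.0664), proliferating SMMC replicate 2 (adjusted p = 0.0989) or fresh SMMC replicate 3 (adjusted p = 0.0945). Pygl, the liver form, stood at 5.004, 8.55 and 15.7 FPKM in fresh SMMC, 0, 0.477 and 0 in proliferating SMMC, 0.548, 1.18 and 2.39 in differentiating SMMC, and 0.0148 and 0 in MuSC. Only the fresh SMMC had clear levels, and they lay above all other libraries. Pygl was 9.78-fold higher (limma adjusted p = 2.1e-05) in fresh SMMC than in MuSC and 8.65-fold lower (limma adjusted p = 9.0e-06) in proliferating SMMC. Its 1.98-fold rise in differentiating SMMC (limma adjusted p = 0.047) was lost under 8 of 14 alternatives, among them the limma fits without differentiating SMMC replicate 2 (adjusted p = 0.0829), differentiating SMMC replicate 3 (adjusted p = 0.171), proliferating SMMC replicate 1 (adjusted p = 0.118) or proliferating SMMC replicate 3 (adjusted p = 0.123). Gys1, muscle glycogen synthase, stood at 1.74, 4.33 and 1.86 FPKM in fresh SMMC, 11.1, 23.4 and 30.9 in proliferating SMMC, 149, 83.7 and 161 in differentiating SMMC, and 5.07 and 3.19 in MuSC. It rose in 2 steps without overlap, while fresh SMMC and MuSC overlapped. Gys1 was 6.09-fold higher (limma adjusted p = 6.6e-05) in proliferating and 6.03-fold higher (limma adjusted p = 2.1e-04) in differentiating SMMC. Pygl made up 45.1% ± 7.91 of the phosphorylase FPKM in fresh SMMC (SD, n = 3) and 0.0295% ± 0.0418 in MuSC (SD, n = 2).

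Other cell markers moved with these differences. In differentiating against proliferating SMMC all 13 fibre markers rose and all 8 cell cycle genes fell, and in proliferating against fresh SMMC all 8 cell cycle genes rose and all 9 pericyte markers fell. In fresh SMMC against MuSC, all 8 tenocyte markers were higher. In the same comparison erythroid markers summed to 332 to 885 FPKM in fresh SMMC and 6.86 to 13.2 in MuSC. Schwann markers summed to 270 to 457 in fresh SMMC and 6.28 to 7.92 in MuSC, and endothelial markers to 239 to 386 in fresh SMMC and 17.7 to 19.5 in MuSC. T cell and NK cell markers were at or below 2.21 FPKM in sum in every library. Macrophage markers summed to 109 to 522 in fresh SMMC and 24.2 to 33.5 in MuSC, and B cell markers to 35.4 to 67.8 in fresh SMMC and 2.32 to 2.81 in MuSC. Neutrophil markers summed to 6.05 to 21.8 in fresh SMMC and 0.571 to 0.818 in MuSC, and dendritic cell markers to 15.5 to 25.3 in fresh SMMC and 5.65 to 6.77 in MuSC. The 8 cell cycle genes summed to 14.0 to 19.7 in fresh SMMC and 38.9 to 54.6 in MuSC. The part of these markers in the results on glucose use was not tested.

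Neighbouring pathways were read from lists of genes outside the 35, for which the counts and the median log2 change stand beside the all-gene medians given above (0.45, -0.06 and 0.00075). Of all genes, limma called 41.7% higher and 18.0% lower in fresh SMMC against MuSC, 33.1% and 35.4% in proliferating against fresh SMMC, and 20.9% and 19.6% in differentiating against proliferating SMMC. A list whose share lies near these, such as the glycogen genes in fresh SMMC against MuSC, gives no result about the list. Of 20 tested genes of glycogen metabolism, 8 were higher and 3 lower in fresh SMMC than in MuSC (median 0.62), 3 rose and 8 fell in proliferating SMMC (median -0.38), and 12 rose and 1 fell in differentiating SMMC (median 1.38). Ppp1r3a, a subunit that targets a phosphatase to glycogen, averaged 11.1 FPKM in differentiating against 0.0413 in proliferating SMMC (11.2-fold higher), and Ppp1r3c, another such subunit, averaged 10.5 FPKM in differentiating against 0.118 in proliferating SMMC (9.96-fold higher). Pgm2, a phosphoglucomutase family member, averaged 68.7 FPKM in differentiating against 11.8 in proliferating SMMC (5.40-fold higher). Of 8 genes of the pentose phosphate pathway, which makes NADPH and ribose, 5 were higher and 1 lower in fresh SMMC than in MuSC (median 0.91), 5 rose and 1 fell in proliferating SMMC (median 1.24), and 0 rose and 2 fell in differentiating SMMC (median -0.20). G6pdx, its entry enzyme, averaged 86.8 FPKM in proliferating against 7.26 in fresh SMMC (11.1-fold higher), and 19.4 FPKM in differentiating against 86.8 in proliferating SMMC (4.44-fold lower). Of 11 genes that bring pyruvate into mitochondria, 5 were higher and 3 lower in fresh SMMC than in MuSC (median 0.24), 5 rose and 2 fell in proliferating SMMC (median 0.30), and 7 rose and 0 fell in differentiating SMMC (median 0.70). Mpc1, a subunit of the mitochondrial pyruvate carrier, averaged 93.8 FPKM in differentiating against 31.7 in proliferating SMMC (2.85-fold higher). Limma adjusted p-values of the genes named with values here were between 1.4e-04 and 4.6e-07.

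Of 9 other sugar and lactate carriers tested, 4 were higher and 0 lower in fresh SMMC than in MuSC (median 0.66), 3 rose and 4 fell in proliferating SMMC (median -0.77), and 3 rose and 1 fell in differentiating SMMC (median 0.64). Emb averaged 54.2 FPKM in fresh SMMC against 2.298 in MuSC (16.3-fold higher). Bsg averaged 24.4 FPKM in fresh SMMC against 1.33 in MuSC (10.8-fold higher), and both encode partner proteins of the lactate carriers. Of 24 regulators and hypoxia-linked genes, 14 were higher and 3 lower in fresh SMMC than in MuSC (median 1.19), 4 rose and 14 fell in proliferating SMMC (median -0.80), and 10 rose and 3 fell in differentiating SMMC (median 0.50). Txnip, a glucose-responsive brake on glucose uptake, averaged 0.322 FPKM in proliferating against 69.3 in fresh SMMC (50.1-fold lower). Its relative Arrdc4 averaged 2.33 FPKM in proliferating against 65.0 in fresh SMMC (20.4-fold lower), and Epas1, which encodes a hypoxia-inducible factor, averaged 0.0199 FPKM in proliferating against 36.2 in fresh SMMC (34.3-fold lower). Bnip3, a target of hypoxia factors, averaged 144 FPKM in differentiating against 19.6 in proliferating SMMC (6.71-fold higher). Of 7 tested glycolysis genes outside the 35, 4 were higher and 0 lower in fresh SMMC than in MuSC (median 0.98), 3 rose and 1 fell in proliferating SMMC (median 0.40), and 3 rose and 3 fell in differentiating SMMC (median 0.34). Eno1b, a near copy of Eno1 that may share its reads, averaged 90.1 FPKM in proliferating against 6.13 in fresh SMMC (12.7-fold higher). Fbp2, a muscle fructose bisphosphatase, averaged 3.78 FPKM in differentiating SMMC and was listed at 0 in the 3 proliferating libraries. Limma adjusted p-values of the genes named with values here were between 2.8e-05 and 1.7e-08.

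In the single cells, isoforms were read as UMIs per 10000 UMIs of all cells of a class, summed within each library. The libraries held 6144 and 6297 cells with medians of 2516 and 2027 UMIs, and 53 barcodes occurred in both. Cells were clustered without the 35 genes and without the pathway genes, and clusters were named from marker genes, so the classes rest on rebuilt names. The first and second library held 216 and 310 smooth muscle and pericyte-like (mural) cells, 318 and 509 tenocyte-like cells, and 382 and 578 MuSC-like cells. Their markers, by which the clusters were named, stood at 153 and 107 UMIs per 10000 for 9 pericyte genes in mural cells, at 304 and 238 for 8 tenocyte genes in tenocyte-like cells, and at 69.5 and 78.8 for 9 MuSC genes in MuSC-like cells. Fibre RNA was found in the other classes at a low level, with Acta1 at 357 and 377 UMIs per 10000 in fibre-like cells, 0.221 and 0.402 in mural cells, 0.129 and 0.836 in tenocyte-like cells and 0.467 and 0.601 in MuSC-like cells.

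Mural cells differed from MuSC-like cells in 11 of 29 members tested by edgeR's quasi-likelihood test, 7 higher and 4 lower, where 26.3% of all 11874 genes were called, 13.5% higher and 12.8% lower. The median log2 change was 0.34 over the members and -0.05 over all genes. Of 10 tested fibre markers 0 were higher and 6 lower in mural cells, and their part in the results was not tested. Hk2 stood at 0.136 and 0.248 UMIs per 10000 in mural cells of the first and second library and at 1.59 and 3.605 in MuSC-like cells (16.4-fold lower, edgeR adjusted p = 4.2e-08). Both mural values were far below both MuSC-like values. Slc2a4 stood at 0.732 and 0.263 in mural cells and had 0 UMIs in MuSC-like cells of both libraries. Summed over both libraries, its 60 mural UMIs stood 46.9-fold above a floor of 3 counts over the MuSC-like cells. This ratio allows for counting error in the MuSC-like cells alone, and mural cells of the second library stood lower than those of the first. Slc2a4 was called higher by edgeR (adjusted p = 2.3e-05). Tpi1 stood at 2.45 and 1.66 in mural and 0.519 and 0.491 in MuSC-like cells (3.08-fold higher, edgeR adjusted p = 2.9e-04). Ldhb stood at 1.07 and 0.464 in mural and 0.156 and 0.0775 in MuSC-like cells (4.86-fold higher, edgeR adjusted p = 2.0e-04). For both genes each mural value lay above each MuSC-like value. Pfkfb3 stood at 0.374 and 0.944 in mural and 0.0148 and 0.213 in MuSC-like cells (5.08-fold higher, edgeR adjusted p = 9.0e-04). Pdk4 stood at 0.0511 and 0.0464 in mural and 0.334 and 0.213 in MuSC-like cells (7.21-fold lower, edgeR adjusted p = 0.00177). Pdk4 was thus lower, and Pfkfb3 higher, in the mural cells of each library. The Pfkfb3 values of MuSC-like cells came from 2 and 33 UMIs. Those of Pdk4 in mural cells came from few UMIs, 18.75% and 16.7% of 16 and 18 UMIs of the Pdk genes.

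Pfkm and Pfkl, the muscle and liver phosphofructokinases, were also higher in mural cells (7.09-fold and 2.61-fold, edgeR adjusted p = 0.0195 and 0.0402). The counts were low, with Pfkm at 11 and 6 UMIs in mural and 4 and 0 in MuSC-like cells of the first and second library. Pfkl had 21 and 12 UMIs in mural and 11 and 12 in MuSC-like cells. Eno2 had 9 UMIs in mural and 1 in MuSC-like cells, a ratio of 21.1 per UMI with an exact 95% interval of 2.93 to 926 for counting error only (edgeR adjusted p = 0.0312). Slc16a1 and Pkm were lower in mural cells (2.84-fold and 1.87-fold, edgeR adjusted p = 0.00925 and 0.0482), and the call of Pkm was lost under all 6 alternatives that gave a test. The direction of Slc16a1 was opposite to that in bulk fresh SMMC against MuSC, where it was called higher. Without the library block, Slc16a1, Pkm, Pfkfb3 and Pfkl were not called. In tenocyte-like cells against MuSC-like cells 4 members were called, 1 higher and 3 lower, beside 20.1% of all genes called, 12.3% higher and 7.75% lower, with medians of 0.04 over the members and 0.0034 over all genes. Hk2 overlapped there, at 1.92 and 3.29 in tenocyte-like and 1.59 and 3.605 in MuSC-like cells (edgeR adjusted p = 0.992). Tpi1 was called (1.88-fold higher, edgeR adjusted p = 0.0397), but not without the library block or without a filter on low counts. Pdk4 stood at 0.00647 and 0.0259 in tenocyte-like cells, from 1 and 5 UMIs, and at 0.334 and 0.213 in MuSC-like cells (16.1-fold lower, edgeR adjusted p = 2.6e-05). Pfkp stood at 0.369 and 0.353 in tenocyte-like and 1.01 and 0.743 in MuSC-like cells (2.55-fold lower, edgeR adjusted p = 0.00843). Pygm stood at 0.0388 and 0.0467 in tenocyte-like cells, from 6 and 9 UMIs, and at 0.230 and 0.0969 in MuSC-like cells (3.75-fold lower, edgeR adjusted p = 0.0129). For these 3 genes each tenocyte-like value lay below each MuSC-like value. In mural cells 5 of 17 glycogen genes were higher and 2 lower than in MuSC-like cells, beside 13.5% and 12.8% of all genes. Gyg, the primer protein of glycogen, was 8.56-fold higher (edgeR adjusted p = 2.0e-06). Of 19 regulators 4 were higher and 2 lower, beside the same shares of all genes. Among them Epas1 stood at 5.09 and 3.43 UMIs per 10000 in mural and 0.111 and 0.194 in MuSC-like cells (21.6-fold higher, edgeR adjusted p = 3.5e-09).

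**Figure D5:**
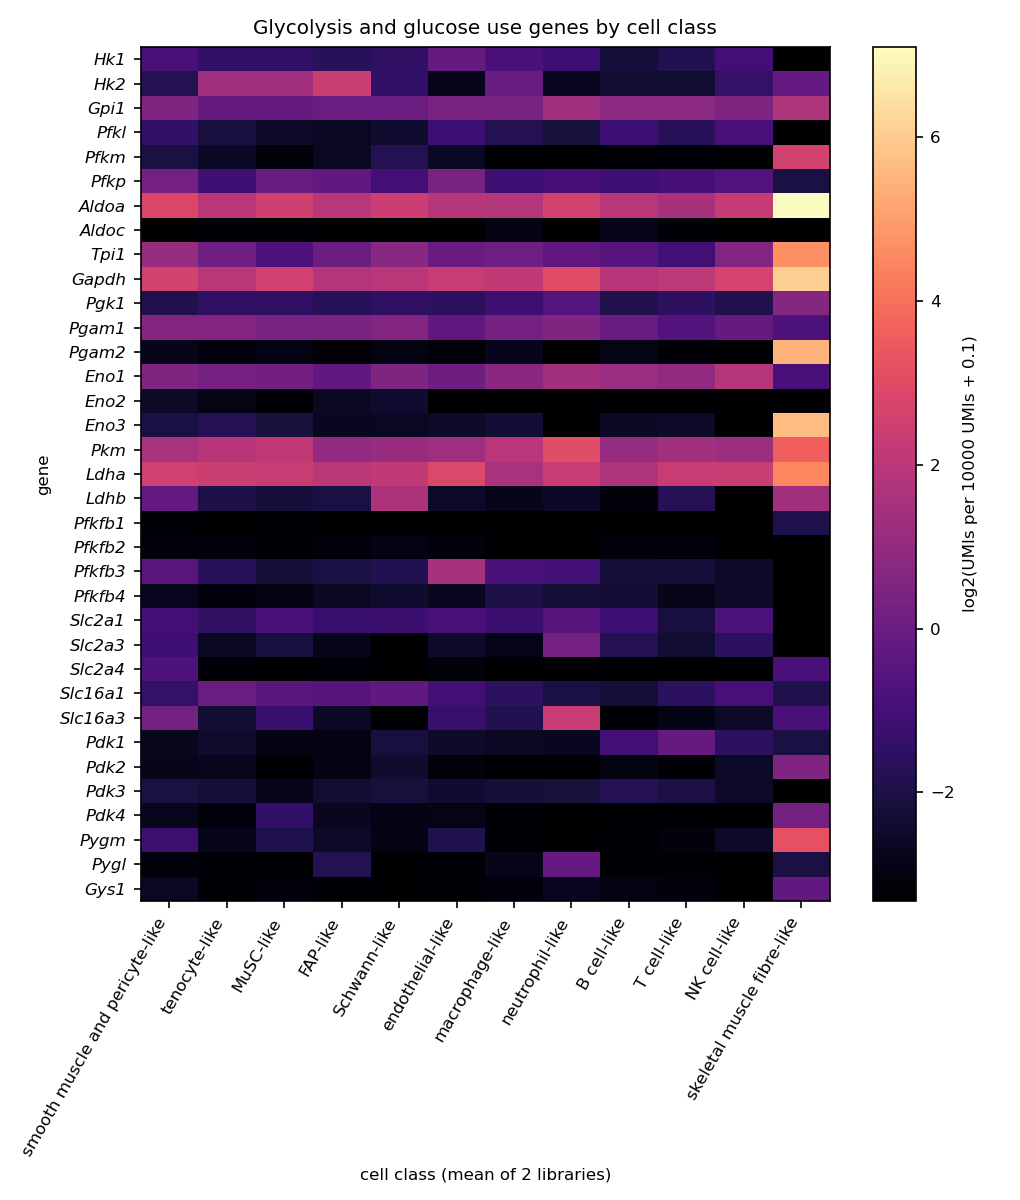
Level of each of the 35 genes (rows) in 12 classes of single cells (columns), as log2 of UMIs per 10000 UMIs + 0.1, averaged over the 2 libraries. Pfkfb1 in the second library is taken as 0 because its table does not list it. Hk2 is bright in tenocyte-like, MuSC-like and FAP-like cells, and Pygm, Pgam2, Eno3 and Pfkm in the 22 skeletal muscle fibre-like cells.

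Across all classes, given as values with no test, Hk2 was highest in FAP-like cells (4.42 and 6.35 UMIs per 10000 in the first and second library), and stood at 0.0354 and 0.0586 in endothelial-like cells, where Hk1 reached 0.657 and 0.926. Hk2 made up 94.7% and 97.3% of hexokinase UMIs in FAP-like cells, 85.6% and 93.5% in tenocyte-like cells, 22.2% and 38.1% in mural cells, 5.11% and 5.95% in endothelial-like cells and 84.6% and 93.6% in MuSC-like cells. Slc2a4 was highest in mural cells and in fibre-like cells (0.331 and 0.578, from only 1 and 2 UMIs). It stood at 0.0152 and 0.0117 in endothelial-like cells, and made up 63.2% and 19.8% of the carrier UMIs of mural cells. Slc16a3 made up 73.3% and 80.3% of the lactate carrier UMIs in mural cells, 6.94% and 13.2% in tenocyte-like cells and 47.7% and 20.1% in MuSC-like cells. Ldhb was highest in Schwann-like cells (3.96 and 2.14), at 30 and 76 cells. Pfkfb3 was highest in endothelial-like cells (0.940 and 4.54), Slc16a3 by its mean in neutrophil-like cells (8.77 and 0.980, from 37 and 21 cells) and Pdk1 in T cell-like cells (1.000 and 0.614). Slc2a3 made up 29.6% and 15.9% of the carrier UMIs in MuSC-like cells, where Slc2a1 led, whereas Slc2a3 led in the sorted MuSC libraries. In mural cells Slc2a3 made up 22.1% and 33.7%. It stood at 0.255 and 0.449 UMIs per 10000 in mural and 0.178 and 0.0840 in MuSC-like cells, opposite in direction to bulk fresh SMMC against MuSC. Slc2a1 overlapped, at 0.170 and 0.619 in mural and 0.423 and 0.446 in MuSC-like cells. Neither carrier was among the members called in mural cells.

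The 11 and 11 skeletal muscle fibre-like cells showed the muscle isoforms almost alone. Eno3 stood at 49.7 and 49.4 UMIs per 10000 and made up 99.3% and 98.8% of enolase UMIs, Pgam2 stood at 39.4 and 44.8 and made up 98.3% and 99.4% of the mutases, and Pfkm made up all 16 phosphofructokinase UMIs of the first library and 95.8% of 24 in the second. In MuSC-like cells Pgam2 made up 4.30% and 1.86% and Eno3 15.1% and 7.21% of their families. In differentiating SMMC, Pfkm stood at 92.3% ± 1.16, Eno3 at 51.4% ± 3.53 and Pgam2 at 20.4% ± 3.18 of their families by FPKM (SD, n = 3). FPKM and UMI shares come from different assays, and no test was made between them.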

How the data were processed

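RNA of 11 bulk libraries and 2 droplet single-cell libraries of mouse skeletal muscle was analysed. The submitters' processing notes name Seurat 2.2 and 2.3.4, STAR 2.5.1b, StringTie, R 3.3.1, 3.4.3 and 3.5.1, HISAT2 2.1.0, Cell Ranger 2.1.0 and 2.2.0, SAMtools 1.3.1 and build mm10, without saying which step or table each made. The bulk table as deposited by the authors holds FPKM, normalised to transcript length and library, with no counts, so depth is unknown; 4 of its FPKM columns matched no sample and were not used. The single-cell tables as deposited by the authors hold UMI counts per gene and cell. The sources used here give no annotation, strand setting or handling of multi-mapping reads.

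The 35 genes and all lists were chosen with earlier results of these data known. Bulk tests used limma 3.58.1 (R 4.3.3) with a trended prior on log2(FPKM + 1), over the 13233 of 24411 genes that reached 1 FPKM in 2 or more libraries, 1 mean per group (7 residual degrees of freedom) and Benjamini-Hochberg adjustment at 0.05. Isoform shares of a family's FPKM were compared by two-sided exact permutation tests (scipy 1.17.1). Genes given with values in every library were the members of families whose leading isoform differs between groups, and members called with at least a 4-fold change; the other members were given so that all are accounted for. Of each pathway list the called genes with the smallest p were candidates for naming.

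Single cells were kept at 200 or more genes and at most 20% mitochondrial UMIs, which removed 0 cells. Scrublet (scanpy 1.11.5) marked 52 cells of the first library (0.846%), which were left out, and 4 of the second (0.0635%), where it did not work, so doublets remain there. Leiden clustering (leidenalg 0.10.2, resolution 1, 30 components, 15 neighbours) used 2000 variable genes without the members and pathway genes. Counts were summed per class and library and tested with edgeR 4.0.16 (quasi-likelihood, TMM, library as a block) in 10 classes with at least 20 cells per library, over 11874 genes. Both tests were checked on simulated data with 200 changed genes. For fresh SMMC against MuSC, limma recovered 26.0% of 2-fold and 81.0% of 4-fold changes, with 2 false calls. For tenocyte-like against MuSC-like cells, edgeR recovered 7.53% and 75.3%, with 2 false calls. A change that was not called may thus still be present. Only these 200 genes changed in the simulated data, whereas 59.7% and 20.1% of all genes were called in the 2 real comparisons. The recovered shares therefore need not hold for the real data. The alternatives were other pseudocounts, filters, rescalings, a replicate block, omission of each library, DESeq2 1.42.0, other doublet handling and resolution 0.5. Intervals and floors cover counting error only. The bulk replicate numbers do not pair the libraries. Figures were drawn with matplotlib 3.10.9 (Python 3.11.15).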

Additional observations from a re-analysis of the deposited data

How the results depend on the processing

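Of the members called in fresh SMMC against MuSC, 16 of 25 kept direction and call under every alternative that tested them. The same held for 24 of 29 in proliferating against fresh SMMC and 16 of 20 in differentiating against proliferating SMMC. In the single cells it held for 7 of 11 in mural and 3 of 4 in tenocyte-like cells against MuSC-like cells, where 6 alternatives gave a test. Some members, such as Eno2 in fresh SMMC against MuSC and in mural cells, were not tested under every alternative. Members called lower in fresh SMMC than in MuSC numbered 5, against 3 with a pseudocount of 0.1 and 9 after TMM rescaling, with 2 to 5 when 1 library was left out. Lower calls in proliferating SMMC numbered 14, against 9 with a filter at 10 FPKM, which tests fewer members. Lower calls in differentiating SMMC numbered 3, against 1 after TMM rescaling and 1 to 2 when 1 library was left out. After TMM rescaling the log2 change in fresh SMMC against MuSC turned to -0.56 for Aldoa and to -0.0020 for Pfkp; the cause was not tested. With 1 FPKM added to every member, the difference in aldolase share between differentiating and proliferating SMMC turned to 0.00628 points for Aldoa and -0.00628 for Aldoc.

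Quantile normalization moved the all-gene median in proliferating against fresh SMMC to 0.14, and equal totals without Rn45s to -0.20. With the replicate number as a block, 23, 30 and 20 members were called in the 3 bulk comparisons, in the order above. Deviations of libraries with the same number correlated at 0.117 and 0.0112, at 0.0845, 0.0400 and 0.0605, and at -0.0959, -0.128 and 0.142 in these comparisons, so the numbers are not taken as pairs. Without the library as a replicate block, 7 members were called in mural cells in place of 11, with 2 lower in place of 4, and 0 were higher in tenocyte-like cells in place of 1. At resolution 0.5, 2 were higher in tenocyte-like cells. Leaving out a single-cell library gives only a direction, with no test. Read depth of the bulk libraries is unknown, and members near 0 FPKM or with few UMIs have little power. In the simulated data, power was also low for 2-fold changes (26.0% recovered by limma and 7.53% by edgeR). Far fewer genes changed there than were called in the real comparisons, so these shares need not hold for the real data.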
